A study of Papio anubis with 24 samples.

Results

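The subtelomeric methylated sites described here are the MeDIP-seq peaks within 2 Mb of either end of the 20 numbered autosomes of the olive baboon (Papio anubis). They were chosen by position alone: a peak was kept if it began within the first 2000000 bases of a chromosome or ended within the last 2000000 bases of its span, the span being the end of the outermost peak in either list. The rule kept 16260 of 166961 peaks of the embryonic stem cell (ESC) list and 6694 of 44434 peaks of the induced pluripotent stem cell (iPSC) list, or 22954 of 211395 in all. In MeDIP-seq, fragmented DNA is precipitated with an antibody against 5-methylcytosine and sequenced beside an unprecipitated input, and a peak marks a stretch enriched for methylated DNA.

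The ESC lines were ESC_B4 and ESC_B15 and the iPSC lines iPSC_160-2 and iPSC_M14939#3, grown on feeder cells in a human pluripotent stem cell medium, with no treatment named and 3 MeDIP and 3 input replicates per line. For the line titled iPSC_M14939#3, the cell line label of 5 of the 6 libraries ends in a number other than that of the title, and the titles were followed. The labels do not say whether a line is a single clone or whether replicates came from separate cultures. Each cell type has 1 peak list, and no value exists per library or line. Differences between the lists therefore carry no replicate error and were not tested, and cell type and line cannot be told apart. The lists hold no expression markers, so the labelled cell types were not checked. Intervals are exact 95% intervals of counting error. They count each peak as an independent event, although peaks beside each other share sequence and fragments. The end with the lowest coordinates is called the start end and the other the far end. The chromosome arm of each end, and the distance from the assembly's edge to the telomere, are not known here.

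Subtelomeres lie just inside the telomere repeats that cap a chromosome. In primates they tend to be rich in GC, in genes and in segmental duplications, and their CpG sites are heavily methylated in somatic cells. The methyltransferases DNMT3A and DNMT3B set this methylation, DNMT1 maintains it through cell division, and in humans loss of DNMT3B function leaves subtelomeres undermethylated. MeDIP captures methylated DNA best where CpG sites are dense, so it reads such regions more readily than CpG-poor ones.

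Peaks were several times denser at the ends than along the rest of the autosomes, and the rise was steeper in the iPSC list. ESC peaks numbered 203.2 per Mb at the ends and 53.9 per Mb in the interior, a ratio of 3.77 (3.71 to 3.84). For iPSC the densities were 83.7 and 13.5 per Mb, a ratio of 6.20 (6.04 to 6.37). The ends make up 3.08% of autosomal length and held 10.7% of autosomal ESC peaks (10.6 to 10.9%) and 16.5% of autosomal iPSC peaks (16.1 to 16.9%). In covered bases, peaks took up 5.66% of the ends against 1.31% of the interior for ESC, and 3.02% against 0.417% for iPSC.

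Relative to the ESC list, iPSC peaks were more frequent at the ends. Per 100 ESC peaks the ends held 41.2 iPSC peaks and the interior 25.04, which is 1.64 times as many (1.59 to 1.70). This multiple depended on how the longer ESC list was used. It was 1.32 (1.27 to 1.37) when only as many ESC peaks were kept as the iPSC list holds, by highest −log10 q, and 3.53 (3.36 to 3.72) when they were kept by highest fold. Under the ranking by fold, ESC peaks at the ends were 1.76 times as dense as in the interior.

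Both lists thinned with distance from the end, after a lower count in the outermost stretch. Summed over the 40 ends, ESC density was 174.1 peaks per Mb in the outermost 250 kb, 239.8 from 250 to 500 kb and 173.3 from 1750 to 2000 kb. The iPSC list ran the same course, at 76.5, 98.9 and 74.0 per Mb. Across the 2 Mb line the decline went on: the band from 2000 to 2250 kb, just outside the rule, held 167.6 ESC and 64.3 iPSC peaks per Mb. The ESC peaks nearest the line lay 1999892 bp from an end on the inside, with a fold of 2.99, and 2000037 bp on the outside, with a fold of 1.96. For iPSC they lay at 1999915 bp (fold 3.00) and 2000379 bp (fold 3.66). Beyond 10 Mb from an end the densities were 46.2 and 10.1 per Mb. The number of iPSC peaks per 100 ESC peaks showed no such gradient within the ends, lying between 38.1 and 43.9 in all 8 bands. It was 38.4 to 43.0 in the bands from 2 to 3 Mb, 30.8 from 5 to 10 Mb and 21.9 beyond 10 Mb.

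**Figure D1:**
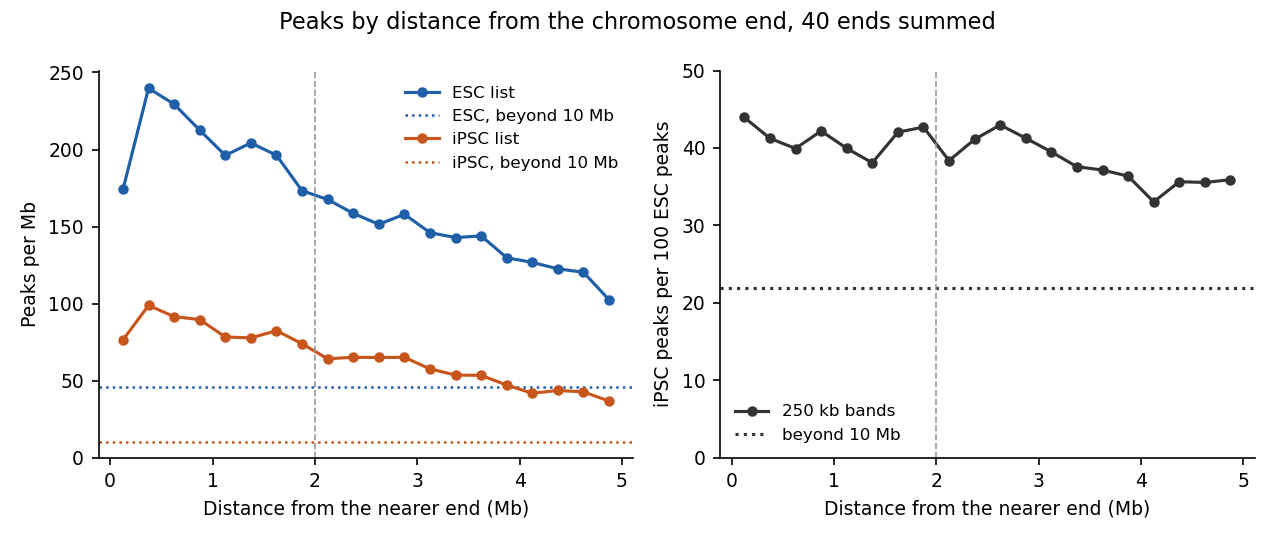
Peaks per Mb (left) and iPSC peaks per 100 ESC peaks (right) against distance from the nearer chromosome end in Mb, in 250 kb bands summed over 40 ends. Dotted lines give the values beyond 10 Mb and the dashed line the 2 Mb limit. Both lists peak in the band from 250 to 500 kb, at 239.8 and 98.9 per Mb, while the ratio stays between 38.1 and 43.9 within 2 Mb.

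The rise was shared by nearly all ends, although the ends differed greatly from one another. An end held between 128 and 683 ESC peaks, with a median of 433.5, and between 33 and 281 iPSC peaks, with a median of 182. Of the 40 ends, 39 were denser than the interior of their own chromosome in the ESC list and 39 in the iPSC list. The far end of chromosome 19 was the exception in both. The exceptions changed with the settings. With the ESC list cut to the iPSC length by fold, 36 ends were denser than their interior, and the far end of 7 (log2 ratio −0.22) and the starts of 10 (−0.37) and 19 (−0.14) also fell below it. With ends of 1 Mb the count was 37 in each list, the far ends of 1 (−0.25) and 13 (−0.46) joining for ESC and those of 13 (−0.34) and 15 (−0.40) for iPSC. With ends of 5 Mb it was 40 for ESC, the far end of 19 then lying above its interior (0.14). Among 1248 interior windows of 2 Mb, the median was 85 ESC and 15 iPSC peaks, and 5 windows in each list reached the median of the ends. On 19 of 20 chromosomes an end was the densest 2 Mb window in the ESC list, and the same number held for iPSC, with chromosome 7 the exception for ESC and chromosome 4 for iPSC.

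**Figure D2:**
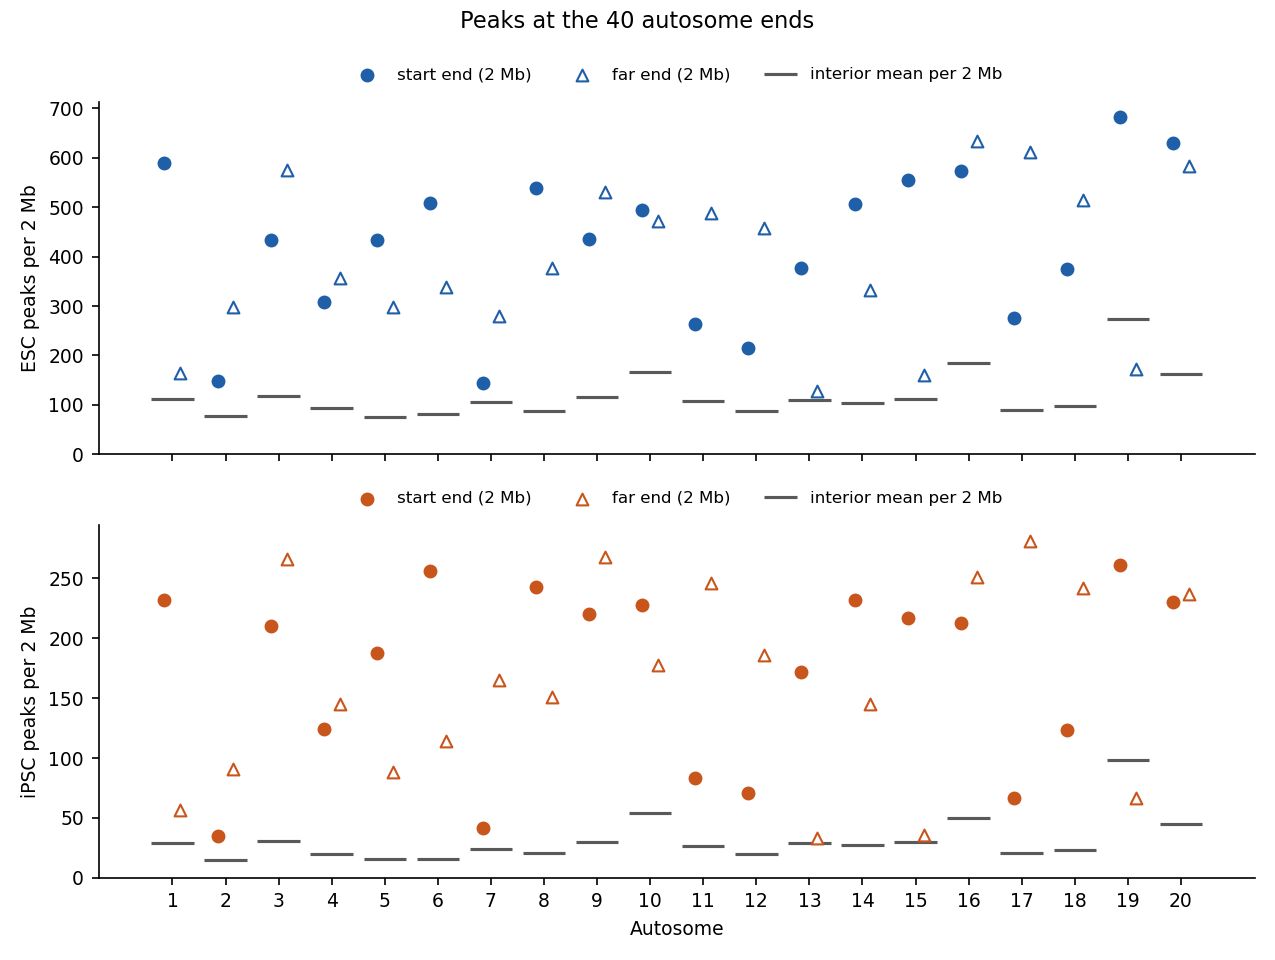
Peaks in the outer 2 Mb of each autosome (filled circles, start end; open triangles, far end) for the ESC list (top) and iPSC list (bottom), with the mean per 2 Mb of the interior of that chromosome as a bar. Counts run from 128 to 683 for ESC and from 33 to 281 for iPSC, and with ends of 2 Mb and the full lists only the far end of chromosome 19 lies below its bar.

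The ends ranked alike in the lists. Across the 40 ends the Spearman correlation of ESC and iPSC counts was 0.930, given as a description since both lists share the assembly and its sequence. Over the 320 bands of 250 kb it was 0.902. No band lacked an ESC peak, 1 lacked an iPSC peak, and none held more iPSC than ESC peaks. Across chromosomes, the ESC count at one end did not rank with that at the other, with a Spearman correlation of −0.051 over 20 chromosomes. Within a chromosome, ESC counts at the ends differed from 1.04 times (chromosome 10) to 3.97 times (chromosome 19). The fuller end held at least 2 times as many peaks as the other on 7 chromosomes in the ESC list and on 11 in the iPSC list. The same end was fuller in both lists on 19 of 20 chromosomes, chromosome 20 being the exception.

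Chromosome 1 had very unequal ends. Its start end held 589 ESC and 232 iPSC peaks, 5.29 and 7.97 times the density of the interior, and was the densest of 108 windows in both lists. Its far end held 165 ESC and 57 iPSC peaks and ranked 20 and 15, with 48 of the ESC peaks in the outer Mb and 117 in the inner. On chromosome 2, one of the sparsest autosomes, the start end held 149 ESC and 35 iPSC peaks and the far end 298 and 91. The far end was the densest window of that chromosome in both lists. Chromosome 3 was fuller at its far end. Its start end held 433 ESC and 210 iPSC peaks and its far end 576 and 266, the latter with 359 of the ESC peaks in the inner Mb. On chromosome 4 the ends were closely matched, at 308 ESC and 124 iPSC peaks (start) and 356 and 145 (far). Of the ESC peaks at the start end, 216 lay in the outer Mb and 92 in the inner. The start end of chromosome 5 held 434 ESC and 188 iPSC peaks and the far end 298 and 88, so the iPSC difference between the ends (2.14 times) was larger than the ESC difference (1.46 times).

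Chromosome 6 had the end with the steepest iPSC rise. Its start end held 508 ESC and 256 iPSC peaks, 6.30 and 16.2 times (14.1 to 18.5) the density of the interior, with 303 ESC and 163 iPSC peaks in the outer Mb. The far end held 338 ESC and 114 iPSC peaks. Chromosome 7 was poor at its start end, with 144 ESC and 42 iPSC peaks. Its far end held 279 ESC peaks but 165 iPSC peaks, so that it ranked 4 of 81 windows for ESC and 1 for iPSC. In the outermost 250 kb of this far end the lists held 15 peaks each. The start end of chromosome 8 held 538 ESC and 243 iPSC peaks and the far end 377 and 151. At the start end more peaks lay in the inner Mb (322 ESC, 155 iPSC) than in the outer (216 and 88). Chromosome 9 was rich at both ends, with 436 ESC and 220 iPSC peaks at the start and 531 and 268 at the far end. Chromosome 10 likewise held 494 ESC and 228 iPSC peaks at the start and 473 and 178 at the far end, but its interior was dense too, so these were 2.97 and 4.21 times the interior at the start and 2.85 and 3.29 times at the far end.

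**Figure D3:**
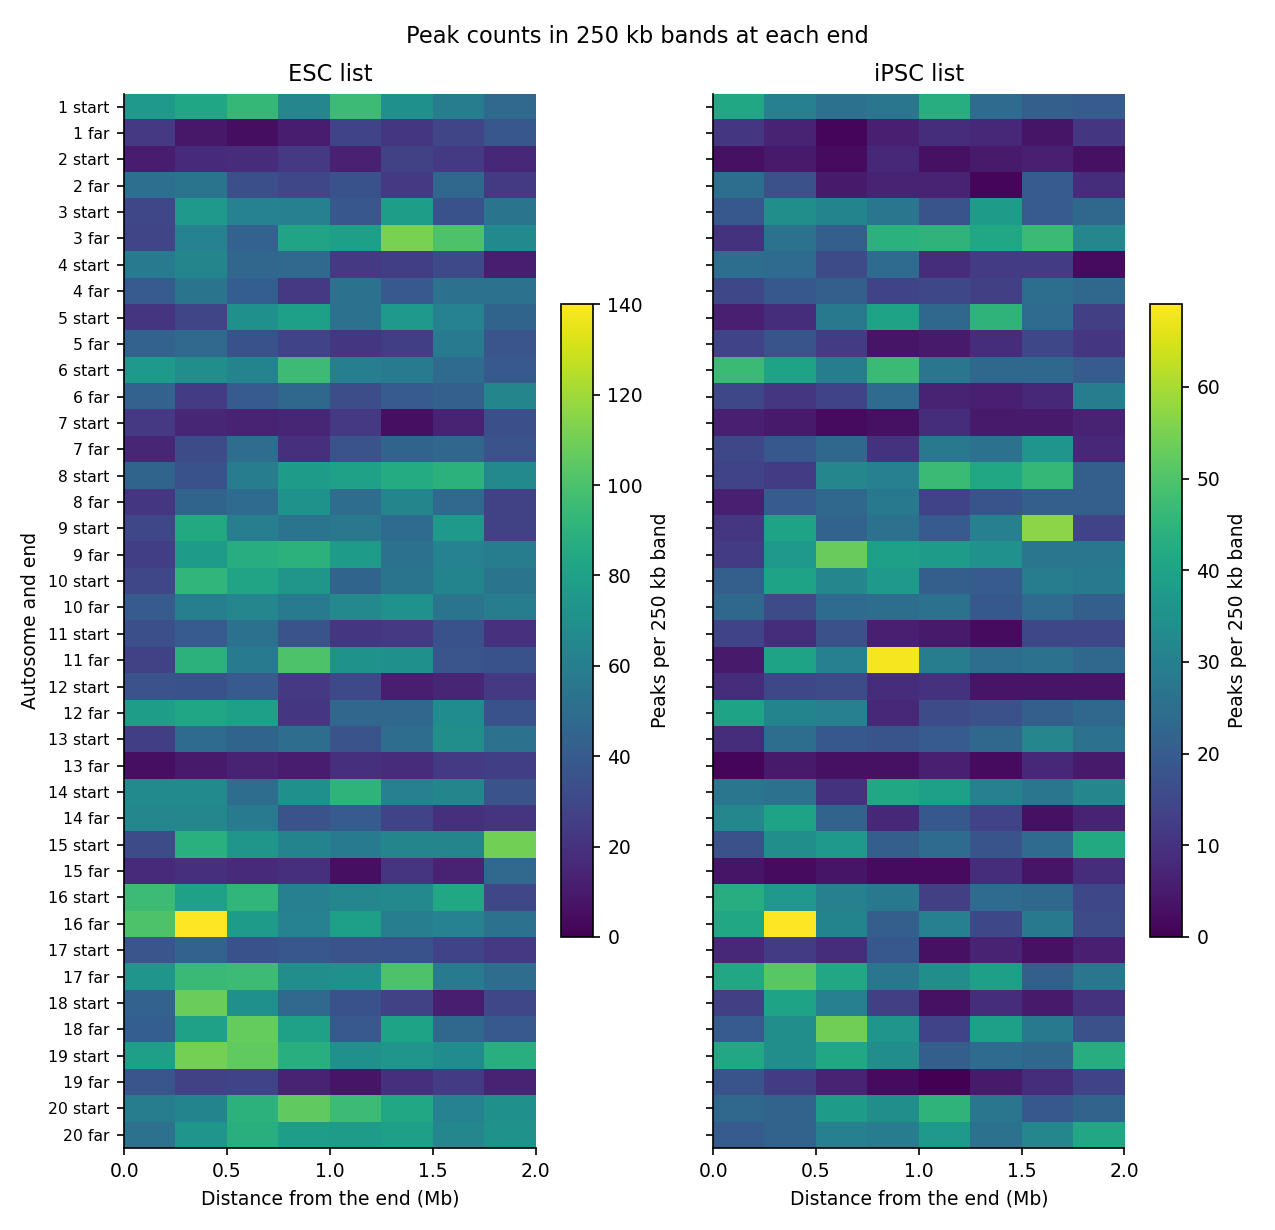
Peak counts in bands of 250 kb (colour) by distance from the end in Mb, 1 row per end, for the ESC list (left) and iPSC list (right). The brightest band in both panels is that from 250 to 500 kb at the far end of chromosome 16 (140 ESC, 69 iPSC peaks). Rows for the far ends of 13 and 15 are dark in most bands.

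On chromosomes 11 and 12 the far end was the fuller. The start end of chromosome 11 held 263 ESC and 83 iPSC peaks and the far end 489 and 246, with 68 iPSC and 101 ESC peaks in the single band from 750 to 1000 kb. For chromosome 12 the start end held 215 ESC and 71 iPSC peaks and the far end 457 and 186. Chromosome 13 had the emptiest end of all in both lists: the far end, with 128 ESC and 33 iPSC peaks, or 1.18 (0.979 to 1.40) and 1.15 (0.790 to 1.62) times the interior. Its start end held 377 and 172 peaks and was the densest window of the chromosome. Chromosome 14 was fuller at its start, with 506 ESC and 232 iPSC peaks there and 332 and 145 at the far end. Of the latter, 223 ESC and 102 iPSC peaks lay in the outer Mb. Chromosome 15 resembled chromosome 13. Its start end held 554 ESC and 217 iPSC peaks, but its far end 161 and 36, the widest iPSC gap between ends of any chromosome (6.03 times).

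Chromosome 16 was dense throughout. The start end held 574 ESC and 213 iPSC peaks, the far end 634 and 251. The far end contained the densest band of both lists. Chromosome 17 held 276 ESC and 67 iPSC peaks at its start end, where 48 of the iPSC peaks lay in the outer Mb. Its far end, with 612 and 281, had the most iPSC peaks of any end and, at 6.88 times (6.31 to 7.498) the interior, the steepest ESC rise. The start end of chromosome 18 held 374 ESC and 123 iPSC peaks, of which 270 and 96 lay in the outer Mb, and the far end held 515 and 242. Chromosome 19 combined the end with the most ESC peaks and, with ends of 2 Mb and the full lists, the only end below its interior. Its start end held 683 ESC and 261 iPSC peaks, and its far end 172 and 67, which was 0.628 (0.537 to 0.731) and 0.681 (0.526 to 0.869) times the density of an interior that is the densest of all autosomes. A stretch of 429.5 kb at that far end held no iPSC peak. Chromosome 20 was filled evenly: 630 ESC and 230 iPSC peaks lay at the start and 584 and 237 at the far end.

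The 5 ends with the most ESC peaks were the start of 19 (683), the far end of 16 (634), the start of 20 (630), the far end of 17 (612) and the start of 1 (589). For iPSC they were the far ends of 17 (281), 9 (268) and 3 (266), the start of 19 (261) and the start of 6 (256). Only the far end of 17 and the start of 19 belonged to both sets. At the other extreme the sets largely coincided. The fewest ESC peaks lay at the far end of 13 (128), the starts of 7 (144) and 2 (149) and the far ends of 15 (161) and 1 (165). The fewest iPSC peaks lay at the same 5 ends, with 33 at the far end of 13, 35 at the start of 2, 36 at the far end of 15, 42 at the start of 7 and 57 at the far end of 1. The 10 emptiest ends held 12.0% of the ESC and 8.65% of the iPSC peaks of all ends, and the 10 fullest 36.7% and 38.1%.

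At 38 of 40 ends there were more iPSC peaks per 100 ESC peaks than in the interior of the same chromosome. The far ends of chromosomes 13 and 15 were the exceptions. The count was 33 with the ESC list cut to the iPSC length by −log10 q, as the far ends of 5 (log2 ratio −0.0387), 10 (−0.0258) and 19 (−0.0311) and the starts of 11 (−0.0827) and 17 (−0.23) turned below their interior. It was 37 with the list cut by fold, where the far end of 19 turned (−0.54). At 30 ends the interval of this ratio lay wholly above 1 and at 0 wholly below. The highest values were at the far end of 7 (59.1 iPSC peaks per 100 ESC peaks, 48.5 to 71.9), the far end of 9 (50.5), the start of 9 (50.5), the start of 6 (50.4) and the far end of 11 (50.3). The lowest were at the far end of 15 (22.4, 15.1 to 32.3), the start of 2 (23.5), the start of 17 (24.3), the far end of 13 (25.8) and the start of 7 (29.2). Set against the interior of its own chromosome, the far end of 7 stood at 2.58 times (2.10 to 3.16) and the start of 6 at 2.57 times (2.18 to 3.02). On chromosome 19 neither end differed beyond counting error, at 1.06 times (0.912 to 1.24) for the start and 1.08 times (0.802 to 1.45) for the far end. Ends with many ESC peaks tended to have more iPSC peaks per 100 ESC peaks, with a Spearman correlation of 0.507 over the 40 ends, a description in which both axes share the ESC count.

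**Figure D4:**
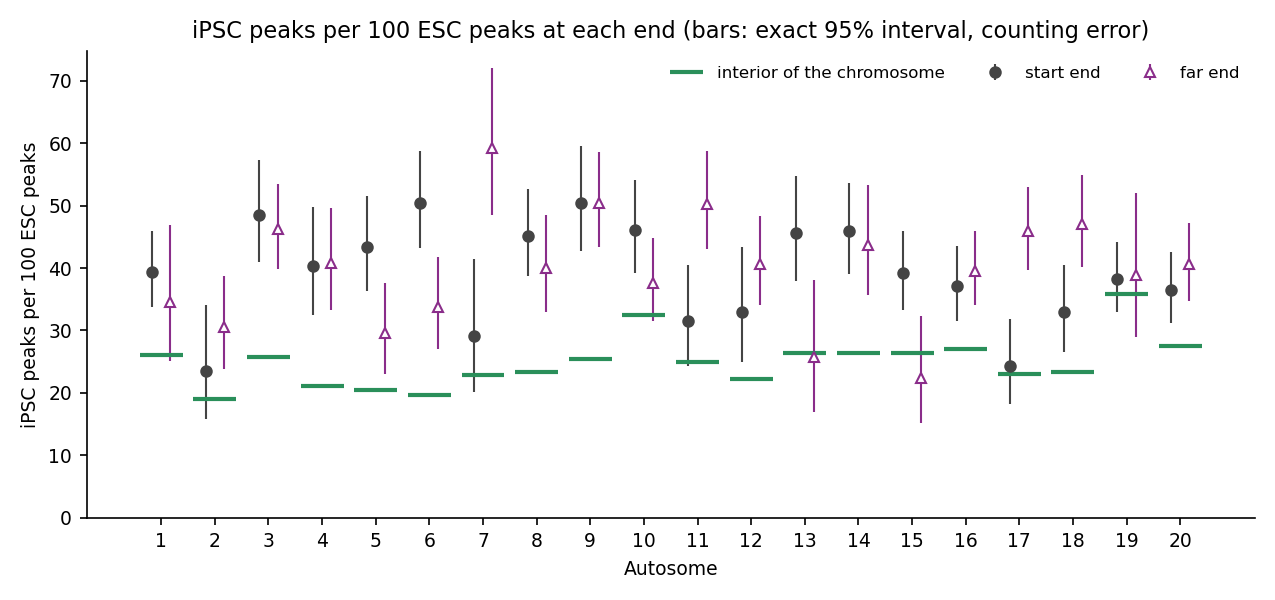
iPSC peaks per 100 ESC peaks at the start end (filled circles) and far end (open triangles) of each autosome, with exact 95% intervals of counting error, and the value of the interior as a green bar. With the full lists 38 of 40 ends lie above their bar, and values run from 59.1 at the far end of chromosome 7 down to 22.4 at the far end of chromosome 15.

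In the full lists, a larger share of peaks was called in both lists at the ends than in the interior. An ESC peak was taken as shared if it overlapped an iPSC peak by at least 1 bp. This held for 4976 of the 16260 ESC end peaks, or 30.6% (29.9 to 31.3%), where 18.1% of all autosomal ESC peaks did so and 16.6% (16.4 to 16.8%) of the interior ones. For iPSC it held for 4881 of 6694 end peaks, or 72.9% (71.8 to 74.0%), where 66.5% of all autosomal iPSC peaks did so and 65.2% (64.7 to 65.7%) of the interior ones. The iPSC share depended on the length of the ESC list: with that list cut to the iPSC length it was 32.03% by −log10 q and 7.44% by fold. The ESC share was then 41.5% and 22.8%. These are shares of end peaks. The interior share was not computed with the cut lists, so the order of ends and interior there is not known. Per end, the share ran from 15.5% at the far end of 15 to 37.3% at the far end of 18 for ESC, and from 56.3% at the start of 12 to 81.3% at the start of 18 for iPSC. The ESC share was above that of the interior of the same chromosome at 38 ends and the iPSC share at 35. In bases, the lists shared 24.7% of what either covered at the ends and 14.6% in the interior. An overlap by position alone is also more frequent where the other list is denser, and both lists were denser at the ends. Whether the overlap exceeded what these densities give was not tested.

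These overlap shares moved with the local background against which a peak was called, a scaled number of fragments computed by inverting the authors' fold and p-value. The median background of end peaks was 48.0 fragments for ESC against 27.1 in the interior, and 31.0 against 24.0 for iPSC. Ranked into 5 equal groups by background, the ESC peaks of the lowest group had 2.19% of their number at the ends and those of the highest group 25.4%. For iPSC the same shares were 5.86% and 28.7%. Within these groups the order of ends and interior was mixed. In the group of highest background, 49.3% (48.2 to 50.4%) of ESC end peaks were shared against 53.2% (52.6 to 53.9%) of interior ones, and in the next group 19.8% (18.7 to 21.1%) against 23.3% (22.8 to 23.9%). In the lowest ESC group the ends were the higher, at 3.47% (2.21 to 5.16%) against 1.005% (0.894 to 1.12%), and in the groups between, at 3.26% against 3.98% and 10.1% against 10.3%, the intervals overlapped. For iPSC the ends had the higher share in the 3 groups of highest background, but the intervals overlapped in each. These shares were 68.0% (65.3 to 70.5%) against 64.7% (63.6 to 65.9%), 74.7% (72.6 to 76.8%) against 71.6% (70.5 to 72.7%) and 84.8% (83.3 to 86.2%) against 82.8% (81.8 to 83.8%). In the lowest 2 iPSC groups the ends had the lower share, at 51.1% against 53.8% and 57.6% against 57.9%, and the intervals overlapped too. With the interior peaks reweighted to the background of the end peaks, an alternative chosen after the values were seen, the ESC difference of 14.0 percentage points became −4.21 and the iPSC difference of 7.71 points became 1.44. Across the 40 ends the median background, in multiples of the lowest background of its list, ranked with the peak count, with a Spearman correlation of 0.814 for ESC and 0.740 for iPSC. The part of the background in the counts and overlaps was not tested further.

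**Figure D5:**
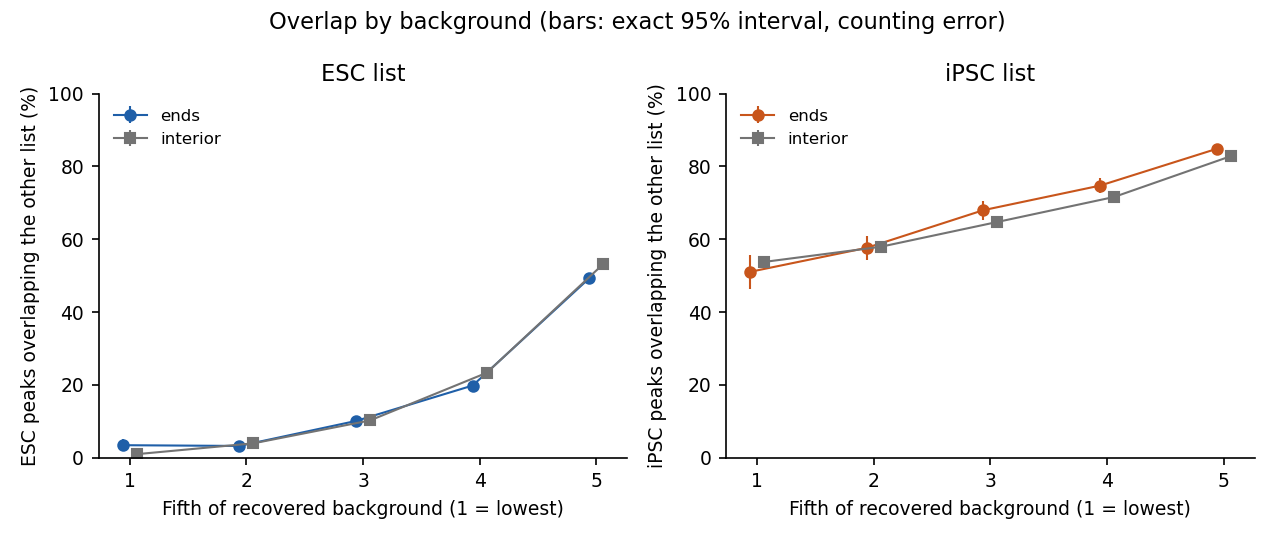
Share of peaks overlapping the other list, in percent, in 5 equal groups by recovered background (1 is lowest), for peaks at the ends (circles) and in the interior (squares), ESC left and iPSC right, with exact 95% intervals of counting error. In both panels the shares climb with background. In the highest ESC group the ends lie below the interior, at 49.3% against 53.2%. In the highest iPSC group the ends have 84.8% against 82.8%, with overlapping intervals.

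End peaks were wider than interior peaks and of lower fold. The median width was 232 bp at the ends and 213 bp in the interior for ESC, and 268 and 238 bp for iPSC. Peaks of 1 kb or more made up 0.357% (0.271 to 0.461%) of ESC end peaks against 0.0820% (0.0675 to 0.0987%) of interior ones, and 3.14% (2.73 to 3.58%) against 1.89% (1.752 to 2.04%) for iPSC. The deposited fold, which is the authors' own value within each list, had a median of 2.06 at the ends and 2.31 in the interior for ESC, and of 2.49 and 2.60 for iPSC. The recovered pileup, the scaled number of fragments at the summit, ran the other way, at 101.0 against 66.0 fragments for ESC and 79.4 against 64.9 for iPSC. Where strong ESC peaks lay therefore differed with the measure of strength. With the ESC peaks in 5 equal groups, 4.89% of the group of highest fold were at the ends, and 13.4% of the group of highest −log10 q. The iPSC list was less divided, at 13.6% and 20.99%. At all 40 ends the iPSC list had the wider median and the higher median fold. The interior medians above had the same order, so this did not set the ends apart. Each list's fold rests on its own background, so its order between the lists is a description only.

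Neighbouring peaks stood close together at the ends. The median gap between neighbours was 2190.5 bp at the ends and 8330 bp in the interior for ESC, and 5214 and 22040.5 bp for iPSC. Many unshared peaks at the ends were also near a peak of the other list. An iPSC end peak without overlap lay a median of 1725 bp from the nearest ESC peak (interquartile range 755 to 3536 bp), against 4083 bp in the interior. Of these 1813 peaks 17.2% lay within 500 bp of an ESC peak and 3.92% beyond 10 kb. An ESC end peak without overlap lay a median of 3564.5 bp from the nearest iPSC peak, against 22701 bp in the interior, and 20.7% of the 11284 such peaks lay beyond 10 kb. Such gaps and distances depend on peak density, which was higher at the ends (203.2 against 53.9 ESC and 83.7 against 13.5 iPSC peaks per Mb). Whether peaks stood closer together than these densities give was not tested.

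At 4660 end sites 1 ESC peak met 1 iPSC peak and no other. Their summits lay a median of 21 bp apart, and the iPSC fold was the higher at 77.9% (76.7 to 79.1%) of them. Interior pairs, 21600 in number, gave 76.8% (76.2 to 77.3%), so the ends did not stand apart in this respect beyond counting error. Pileup in multiples of the lowest background of each list was higher in iPSC at 2.58% of end pairs (2.14 to 3.07%) and 2.50% of interior pairs (2.30 to 2.72%). The ESC peak of an end pair was 286 bp wide at the median and the iPSC peak 263 bp, unlike the lists as a whole, in which iPSC peaks were the wider. Interior pairs had the same order, at 251 bp for ESC and 237 bp for iPSC, so it was not particular to the ends.

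Single peaks are named by position as the lists give them, counted from 1. Genes are not given, because the annotation at hand does not match the coordinates of the lists. Among shared end peaks the highest iPSC fold was 7.99 on chromosome 14 at 1314032 to 1314359, where the ESC peak at 1314066 to 1314262 had a fold of 1.62. The recovered background there was 12 fragments in iPSC and 111.0 in ESC. Next came chromosome 4 at 164619502 to 164619973 (iPSC fold 6.19, ESC fold 2.50) and, at its other end, 811337 to 811673 (6.17 and 2.42). Both ends of chromosome 2 followed, at 989984 to 990230 (5.99 and 3.18) and 186397182 to 186397728 (5.97 and 1.58). At all 5 the background was lower in iPSC, at 10.2 to 24 fragments, than in ESC, at 36.7 to 142.3. This was the usual order. In multiples of the lowest background of each list, the background was higher in iPSC at 2.27% of the 4660 end pairs. The 5 were also picked by iPSC fold, which a low iPSC background raises.

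Among ESC end peaks without overlap, the highest fold was 5.43 on chromosome 1 at 215621198 to 215621450, 24705 bp from the nearest iPSC peak. It lies at one of the 5 emptiest ends. Of the others, a pair lay at the start of chromosome 17, at 1159617 to 1159831 (fold 5.03) and 1094244 to 1094439 (4.65). The start of chromosome 18 gave 1 with a fold of 4.85 (82983 to 83204), and the far end of chromosome 8 gave 1 with 4.70 (139919364 to 139919585). The iPSC peaks without overlap reached higher folds. The 5 listed here were picked by fold alone and do not show which ends held most of the 1813 such peaks. The highest was 7.09 on chromosome 8, between 140222831 and 140223161, followed by 6.70 on chromosome 1, between 217258271 and 217258902. Folds of 5.47, 5.33 and 5.26 were listed on chromosomes 13 (103605824 to 103606472), 19 (49454370 to 49456129) and 11 (131965662 to 131966259). Their nearest ESC peaks lay 403 to 12569 bp away.

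The widest ESC end peaks all overlapped iPSC peaks. They were 2098 bp on chromosome 16 at 74637577 to 74639674, 1671 bp on chromosome 20 at 203913 to 205583 and 1613 bp on chromosome 6 at 67503 to 69115. The widest iPSC end peaks, by contrast, overlapped no ESC peak: 3277 bp on chromosome 3 at 180061665 to 180064941, 3000 bp on chromosome 10 at 74889 to 77888 and 2674 bp on chromosome 16 at 74346836 to 74349509. The nearest ESC peaks lay 4430, 5333 and 4745 bp from them. Among all iPSC end peaks of 1 kb or more, 142 of 210 overlapped an ESC peak, so these 3 were not typical of the class. Besides the far end of 16, the densest bands were, for ESC, from 1250 to 1500 kb at the far end of 3 (112 ESC, 41 iPSC peaks) and from 250 to 500 kb at the start of 19 (111 and 34). For iPSC they were from 750 to 1000 kb at the far end of 11 (68 iPSC, 101 ESC) and from 1500 to 1750 kb at the start of 9 (57 and 75).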

How the data were processed

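The 24 libraries of 4 groups (MeDIP and input, ESC and iPSC, 6 each) were deposited as 2 MACS2 peak lists. Per the submitters' processing notes, MACS2, deepTools, SAMtools 1.10 and Picard 2.239 were used; the sources used here do not give options, aligner, build or the pooling of libraries. Per peak, the authors deposited the position, a fold enrichment (a linear ratio to a local background), −log10 p-value and −log10 q-value, and a score, which was not used. The lowest −log10 q was 1.30, a q of 0.05. Read depth per library is unknown.

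Members were kept by position. Peaks of the mitochondrial sequence, unplaced scaffolds and chromosome X were left out. Overlaps of at least 1 bp were found with bedtools 2.31.1. Shares carry exact Clopper-Pearson 95% intervals, density ratios and ratios of counts exact conditional ones. Pileup and background were recovered by inverting fold = (pileup + 1) / (background + 1) and a Poisson tail. The pileup was whole within 0.02, after division by a factor of 0.690 for iPSC, in 100% of peaks of both lists. On simulated peaks made with the same formulas the background came back within 1% for 99.9% (ESC) and 99.4% (iPSC). Software was Python 3.11.15 with scipy 1.17.1, pandas 2.3.3, numpy 2.4.6 and, for plots, matplotlib 3.10.9.

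All 40 ends are reported, with the 5 highest and 5 lowest by ESC count, iPSC count and their ratio, the top 5 end peaks by fold among overlapping, ESC-alone and iPSC-alone ones, the 3 widest peaks and the 3 densest bands per list. Members, rule and alternatives were chosen with earlier results of these data known. The annotation at hand (Panubis1.0) does not match the lists' coordinates: peaks run past its last gene by over 1 Mb on 9 of 20 autosomes, so no gene or sequence is given.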

Additional observations from a re-analysis of the deposited data

Results flagged for a closer look

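The ends of chromosome X were outside the comparisons above, and both lists held peaks there. No control list was used here. The start end of X held 135 ESC and 33 iPSC peaks within 2 Mb, which is 2.31 (1.93 to 2.75) and 4.31 (2.93 to 6.12) times the density of the interior of X. The far end held 202 ESC and 33 iPSC peaks, or 3.46 (2.99 to 3.99) and 4.31 times. At that far end 175 ESC and 31 iPSC peaks lay in the inner Mb and 27 and 2 in the outer, and the outermost iPSC peak lay 659622 bp from the last ESC peak. The X values rest on few iPSC peaks, and no difference between X and the autosomes was tested.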

How the results depend on the processing

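Both lists stayed denser at the ends than in the interior, and iPSC peaks more frequent per ESC peak there, under all alternatives run, while sizes moved. At −log10 q of at least 5, 11.2% of ESC and 17.2% of iPSC peaks were at the ends (density ratios 3.97 and 6.51), 27.9% and 62.4% of end peaks overlapped, and median widths were 229 and 274 bp and median folds 2.19 and 2.64. With the ESC list cut to the iPSC length by −log10 q, 13.0% of its peaks were at the ends (density ratio 4.71, iPSC-per-ESC multiple 1.32, 1.47 Mb covered, median fold 2.47), overlap was 41.5% (ESC) and 32.03% (iPSC), and the X ends held 36 and 63 ESC peaks. By fold these were 5.29%, 1.76, 3.53, 0.529 Mb and 2.94, with a median width of 216 bp, overlap of 22.8% and 7.44%, and 35 and 32 X peaks. In covered bases the shares at ends were 12.1% and 18.7% and the ratios 4.32 and 7.23.

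Ends of 1 Mb held 5.64% and 8.79% of peaks, with 2.44 and 1.28 Mb covered, overlap of 31.99% and 75.4%, an ESC width of 236 bp and an iPSC fold of 2.47, and the X ends 72 (start) and 27 (far) ESC and 2 (far) iPSC peaks. Ends of 5 Mb held 21.7% and 32.2% (ratios 3.33 and 5.68, multiple 1.71), with 8.86 and 4.63 Mb covered, overlap of 28.1% and 69.7%, widths of 227 and 262 bp, folds of 2.10 and 2.54, and 355 ESC and 79 iPSC peaks at the far end and 55 iPSC peaks at the start end of X. Merging peaks within 500 bp gave shares of 9.75% and 15.8%, ratios of 3.39 and 5.90, a multiple of 1.74, widths of 245 and 280 bp and overlap of 32.7% and 74.4%. An overlap of 50% of both peaks held for 25.7% and 62.3%. Apart from the reweighting below, overlap under the alternatives was computed for end peaks only, without the interior. Without chromosome 19 the ratios were 3.88 and 6.54. The reweighting by background, chosen after seeing the data, turned the ESC overlap difference to −4.21 points and moved the iPSC difference to 1.44.

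Of 1114 values of single ends under alternatives, 21 changed sign: 13 of the iPSC-per-ESC ratio, 6 of ESC density and 2 of iPSC density. In 15 of them the interval of the reported value spanned no change. The other 6, on the log2 scale, were the iPSC-per-ESC ratio of the far end of 5 (−0.0387, ESC cut by −log10 q), ESC density at the far end of 7 (−0.22) and the starts of 10 (−0.37) and 19 (−0.14) with ESC cut by fold, at the far end of 1 with ends of 1 Mb (−0.25), and at the far end of 19 with ends of 5 Mb (0.14). The reweighting by background was not applied to single ends, and the cause of these changes was not tested. The number of ends with more iPSC peaks per ESC peak than their interior was 33 to 39 of 40 over these alternatives, and 36 of 38 without chromosome 19. No paired analysis was possible because the lists, 1 for ESC and 1 for iPSC, have no column per replicate, and no replicate could be left out for the same reason. Read depth is unknown, so how far it limits the shorter iPSC list was not tested.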
